A study of Rattus norvegicus with 4 samples.

Results

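The genes followed here are the rat acyl-CoA synthetases Acsl1, Acsl3, Acsl4, Acsl5, Acsl6, Acsbg1 and Acss2 and the peroxisomal transporters Abcd2 and Abcd3. These 9 of 9316 named genes tested were measured by 13 of the 41012 probes of the array, found by matching each probe's accession to a gene, and all 13 passed the filter on dim probes. The set was chosen by function around Acsl6 and Abcd2, whose T3 over saline ratios on these arrays were already known. The members' T3 over saline values are therefore a description and carry no test.

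An acyl-CoA synthetase joins a fatty acid to coenzyme A at the cost of ATP, and only the activated acid can be oxidized, elongated or built into membrane lipids. The ABCD proteins of the peroxisome membrane carry very long-chain and branched acyl-CoA inward, where their oxidation begins. In brain these steps are known for handling polyunsaturated and very long-chain acids. Thyroid hormone is known to induce Abcd2 in rat liver.

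Total RNA came from hypothalamic blocks of male Sprague Dawley rats that were 7 weeks old when treatment began and 10 weeks old when killed. All rats drank methimazole (MMI, 0.025%), which blocks thyroid hormone synthesis, over 22 days. On day 21 some were injected with triiodothyronine (T3, the active hormone, 25 µg per 100 g) while the others received saline. Tissue was taken 24 hours later, and no rat with an intact thyroid state was analysed here, so every ratio compares T3 with saline in hypothyroid animals. Each of 4 two-colour arrays set a T3 channel against a saline channel. Counted as 1 rat per channel there were 8 rats, 4 per group, but the labels do not say that each channel held 1 rat. Arrays 1 to 4 alternated the dyes, with T3 in the red dye Cy5 on arrays 1 and 3 and in the green dye Cy3 on arrays 2 and 4. A block holds many cell types, and fewer cells of a type cannot be told apart from less RNA per cell.

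The promoters of Acsl6 and Abcd2 are shown because these genes had the highest ratios of the set. All 9 members matched an entry of the RefSeq promoter table. Both sequences are the 250 bases before the start site listed by RefSeq (build GRCr8), written 5′ to 3′ along the gene. That of Acsl6 lies on the plus strand at chr10:38951911-38952160, and its start site is 11493 bases inside the outermost start annotated for the gene. That of Abcd2 lies on the minus strand at chr7:124191203-124191452. Capitals mark matches to the motifs named after the sequences.
Acsl6: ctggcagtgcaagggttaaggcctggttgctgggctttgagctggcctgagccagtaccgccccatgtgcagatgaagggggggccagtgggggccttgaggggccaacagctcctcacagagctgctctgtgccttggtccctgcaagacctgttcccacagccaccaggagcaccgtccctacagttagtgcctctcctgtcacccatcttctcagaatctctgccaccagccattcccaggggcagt
Abcd2: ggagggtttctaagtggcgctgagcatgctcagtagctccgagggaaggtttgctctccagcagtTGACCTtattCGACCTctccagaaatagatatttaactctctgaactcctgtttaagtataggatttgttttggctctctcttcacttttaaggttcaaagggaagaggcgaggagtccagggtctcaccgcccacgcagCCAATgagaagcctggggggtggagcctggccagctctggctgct

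The searched letters were AGGTCA, which nuclear receptors such as the thyroid hormone receptor bind, its direct repeats with a gap of 4 bases (DR4) or of 1 base (DR1), the sterol regulatory element, the E-box CACGTG and CCAAT, each on both strands. Of the 9 member promoters only that of Abcd2 held AGGTCA, on the strand opposite to the gene with its first base at -185 from the start site. The same letters occurred in 14.1% of 33469 promoter windows of this length. In Abcd2 the element belongs to a direct repeat that differs by 1 letter from DR4. Such a 1-letter variant was present in 0.128% of the windows, and it was searched for after the Abcd2 sequence had been seen. CCAAT was found in Abcd2, Acsbg1, Acsl1, Acsl3 and Acss2 and in 34% of all windows. None of the 9 windows held the full DR4 (0.00299% of all windows), DR1 (0.0508%), the sterol element (0.105%) or CACGTG (5.59%), and the Acsl6 window held none of the searched letters. AGGTCA in the Abcd2 window is counted again in the repeat, since both searches cover the same bases. A match describes these letters and not a bound site.

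Acsl6 encodes a long-chain acyl-CoA synthetase of neurons and astrocytes that is known in mice for enriching brain lipids in docosahexaenoic acid. Its spot read 14670.5 in the T3 channel and 3719 in the saline channel of array 1, and 15817 and 2710 on array 3, where T3 was in the brighter dye. On arrays 2 and 4, with the dyes exchanged, it read 6333 against 9879 and 5745 against 8036. After the dyes were balanced by loess normalization (a curve fitted to ratio against brightness), log2 T3 over saline was 0.82, 0.81, 0.91 and 1.11 on arrays 1 to 4. The ratio was therefore above 0 on each array in both dye orientations, with a mean of 0.91 ± 0.14 (SD, n = 4 arrays), a 1.88-fold difference.

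The log2 level of Acsl6 (single-channel brightness after normalization, in arbitrary units) was 13.09, 13.27, 13.24 and 13.41 in the T3 channels of arrays 1 to 4. It was 12.27, 12.47, 12.33 and 12.30 in the saline channels. The lowest T3 channel lay above the highest saline channel, a separation in this direction seen in 0.971% of the 22654 kept probes measured on all 4 arrays. Kept probes are those that the scanner software marked well above background in at least 3 T3 channels or 3 saline channels.

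Abcd2 encodes a peroxisomal carrier of very long-chain and polyunsaturated acyl-CoA. Log2 T3 over saline was 0.54, 0.26, 0.49 and 0.41 on arrays 1 to 4, with a mean of 0.42 ± 0.12 (SD, n = 4), a 1.34-fold difference. The ratio was above 0 on each array, which was so for 3 of the 13 member probes (Acsl6, Abcd2 and 1 of Acsl1) and for 7.91% of kept probes. Its log2 level was 11.97, 11.65, 11.27 and 12.10 in the T3 channels and 11.43, 11.39, 10.79 and 11.69 in the saline channels. The groups overlapped because both channels of array 3 read low and both channels of array 4 read high, while on each array the T3 channel was the higher. By the mean ratio Acsl6 ranked 25 and Abcd2 ranked 242 from the top among 23210 kept probes.

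**Figure D1:**
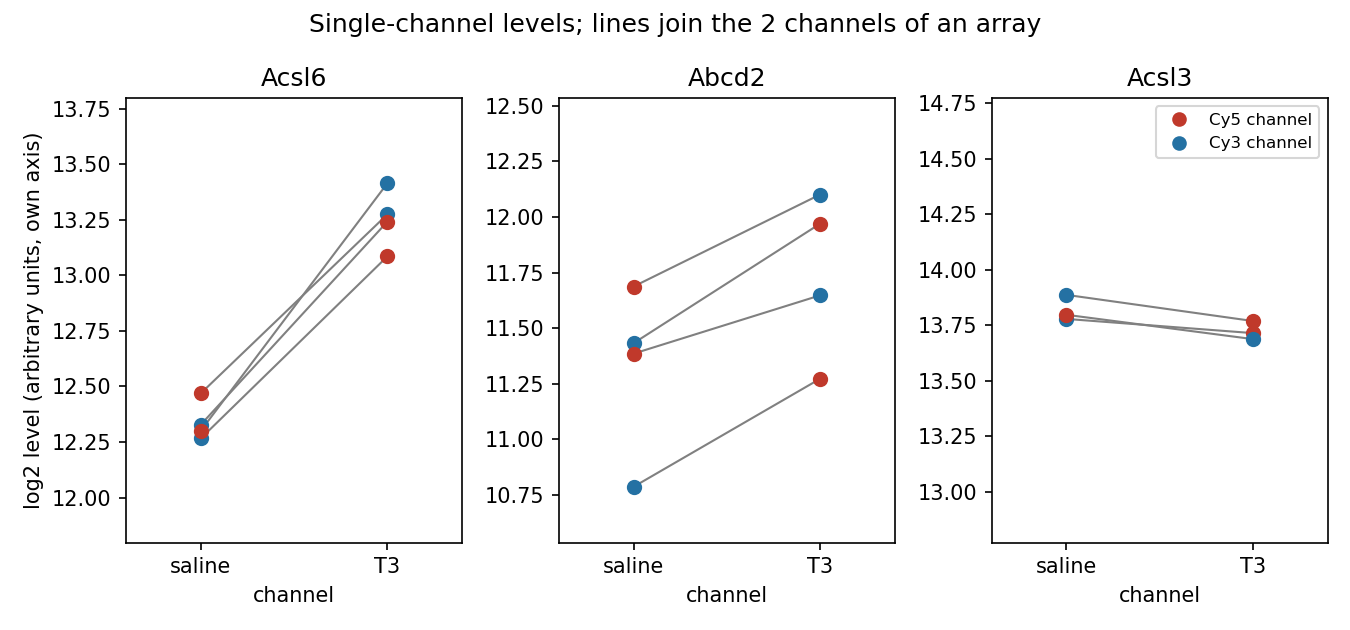
Log2 level (arbitrary units, each panel with its own axis over the same span) of Acsl6, Abcd2 and Acsl3 in the saline and the T3 channel of each array, joined by a line and coloured by dye. The T3 channels lie above all saline channels for Acsl6, above their own array partner for Abcd2, and slightly below all saline channels for Acsl3, which has no value on array 4.

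Abcd3, also called PMP70, is an abundant peroxisome membrane protein that transports branched-chain and dicarboxylic acyl-CoA. Its log2 ratios were 0.34, -0.02, -0.0014 and 0.21 on arrays 1 to 4, with a mean of 0.13 ± 0.17 (SD, n = 4). The value was near 0 on arrays 2 and 3 and higher on arrays 1 and 4, and the levels of T3 and saline channels overlapped. The mean was smaller than its SD.

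Acsl1, the main isoform of liver, heart and fat, had 4 probes that did not share a direction. The brightest, A_43_P14632, was at -0.06 ± 0.07 (SD, n = 4), with -0.03, -0.07, -0.14 and 0.02 on arrays 1 to 4. The dimmest, A_44_P505025, was at 0.19 ± 0.17 and was well above background on 3 of 4 arrays in each channel. A_44_P1017662 was at 0.06 ± 0.03 with 4 values between 0.03 and 0.09, and A_44_P172489 at 0.02 ± 0.20. Acsl1 thus has no single direction across its probes, and the size of its ratio differs from probe to probe.

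Acsl3, an isoform of the endoplasmic reticulum and of forming lipid droplets, was at -0.06, -0.11 and -0.12 on arrays 1 to 3. Its spot on array 4 was marked as an outlier by the scanner software and left out, so the mean of -0.10 ± 0.03 (SD) rests on 3 arrays. With that spot kept, although it lay in the dim rows of array 4, the mean over 4 arrays was also -0.10. Its log2 levels of 13.72, 13.69 and 13.77 in T3 channels lay below those of 13.78, 13.80 and 13.89 in saline channels, a separation of 3 against 3 seen in this direction in 3.20% of the 23050 kept probes measured on those arrays. With each array centred on its median in place of loess, the mean of the same 3 arrays was 0.12. Under that scaling limma called a dye effect for 66.8% of all probes. Without array 4 the dye orientations were unequal in number, so a dye effect does not cancel in the 0.12. That value therefore cannot show whether the direction depends on the scaling. In the authors' deposited table, which holds a value for array 4, the mean was 0.02.

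Acsl4, which prefers arachidonic acid, was at 0.10, -0.17, 0.16 and -0.46 on arrays 1 to 4 by its brighter probe A_42_P654061. The mean was -0.09 ± 0.29 (SD, n = 4), and the dimmer A_44_P375004 gave -0.07 ± 0.19 with a spread of -0.28 to 0.16. Neither probe had a direction beyond its spread.

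Acsl5, an isoform of mitochondria and endoplasmic reticulum best known from intestine and liver, was at -0.04, 0.18, 0.41 and -0.08. The mean of 0.12 ± 0.23 (SD, n = 4) was smaller than the spread, with arrays 2 and 3 above 0 and arrays 1 and 4 below.

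Acsbg1, the bubblegum synthetase of astrocytes, had log2 ratios of 0.56, -0.28, 0.15 and 0.05 (mean 0.12 ± 0.35, SD, n = 4). Acss2, which makes acetyl-CoA from acetate in cytosol and nucleus, was at 0.21, -0.29, 0.10 and -0.0062 (mean 0.0038 ± 0.21). Both were highest on array 1 and lowest on array 2.

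**Figure D2:**
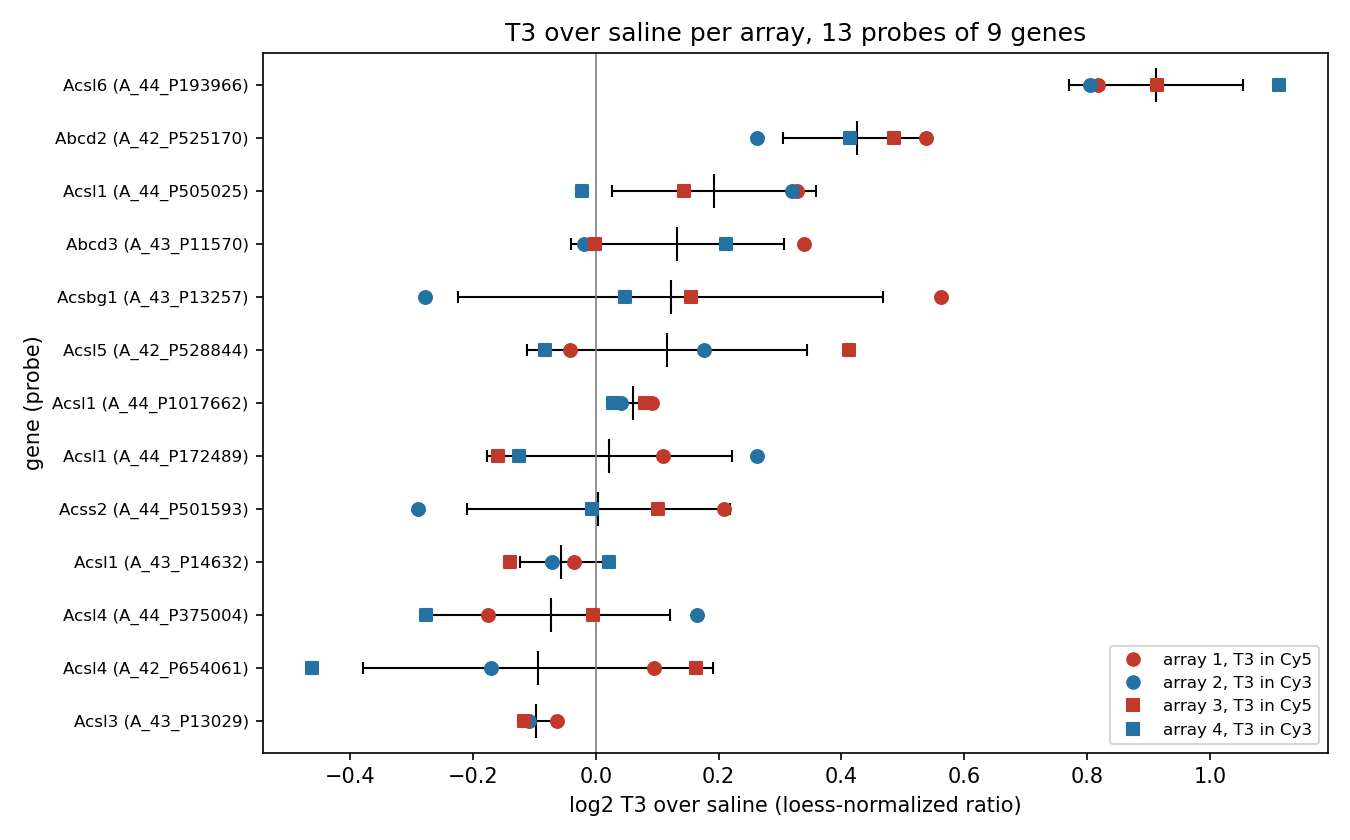
Log2 T3 over saline (horizontal axis) of the 13 probes of the 9 genes, one row per probe, on each array, with the mean (tick) and SD (bar) over the arrays measured. The Acsl6 values lie between 0.81 and 1.11 and the Abcd2 values between 0.26 and 0.54, while most other probes have arrays on both sides of 0; Acsl3 and 1 Acsl1 probe lie on one side, close to 0.

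By the brightest probe of each gene, 6 of 9 members had a mean above 0, against 51.9% of 9316 named genes. The median ratio was 0.12 over the members and 0.0042 over all named genes, and by array it was 0.21, -0.07, 0.15 and 0.03 on arrays 1 to 4. The members' median of 0.12 was -0.03 without replicate 1. In the limma fit of T3 over saline on all kept probes, 1 of the 13 member probes, that of Acsl6, was among the 23 with an adjusted p under 0.05, or 0.0991% of probes (0.0948% higher, 0.00431% lower). With a dye term it was among 0.0646%. Nothing is read from these counts, since that contrast was known when the set was chosen. The call was lost without replicate 1, 3 or 4, with Agilent's processed signals, with median centring and with single-channel values, settings in which limma called no probe at all, while the mean ratio of Acsl6 lay between 0.85 and 0.94 in them.

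Whether the dye itself altered the readings was tested by adding a dye coefficient to the limma model. This coefficient was not used to choose the members, but it is drawn from the same 4 ratios of each probe. Its values for Acsl6 and Abcd2, whose ratios were known beforehand, are therefore a description. No member probe was called for the dye (0 of 13; limma adjusted p between 0.232 and 0.962), and 0 of 23207 probes were, or 0%. Since no probe of the array was called, with a smallest limma adjusted p of 0.0955, this does not show that the dye had no effect on the members. At an unadjusted p under 0.05 there were 2 of 13 member probes and 17.0% of all probes. These were Acsbg1, with a Cy5 over Cy3 coefficient of 0.24 (SE 0.09, limma adjusted p = 0.289), and the brighter Acsl4 probe, with 0.22 (SE 0.07, limma adjusted p = 0.232). Without the spots that were dim on array 4, the coefficient of the Acsl4 probe was 0.15 (SE 0.08, limma adjusted p = 0.377), and Acsbg1 alone of the 13 was under an unadjusted 0.05. The Acsbg1 ratio averaged 0.36 with T3 in Cy5 and -0.12 with T3 in Cy3. For Acsl6 the coefficient was -0.05 (SE 0.07), with mean ratios of 0.87 and 0.96 in the 2 orientations, and for Abcd2 0.09 (SE 0.06), with 0.51 and 0.34. Without loess, with each array centred on its median, 10 of 13 member probes were called for the dye, beside 66.8% of all probes. After loess, ratios of kept probes correlated at r = 0.38 between arrays 1 and 3 and 0.18 between arrays 2 and 4, which share an orientation. Between arrays of unlike orientation r lay between -0.11 and 0.11. The cause of this was not tested.

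Part of array 4 was dim, and this touches Acsl4, Acsl1 and Acsl3. Among 18912 bright spots, 8.48% read more than 1 log2 unit below the other arrays in both dyes on array 4, against 0.116% to 0.449% on arrays 1 to 3. In rows above 418 of the 532 rows of the array this was 40.6%. Both Acsl4 spots, in row 496, and the Acsl1 spot of A_44_P1017662, in row 435, were dim there. At -0.58 log2 units in Cy5 and -0.73 in Cy3 against the other arrays, the Acsl3 spot, in row 435, missed the limit of 1. The brighter Acsl4 spot read 684.5 in Cy5 on array 4, against 3666.5, 4108 and 3977 on arrays 1 to 3. Leaving out such spots, a step added after the data were seen, moved Acsl4 from -0.09 to 0.03 by the brighter probe and from -0.07 to -0.0057 by the other, so its sign is not settled. The Acsl1 probe went from 0.06 to 0.07, and the spots of Acsl6 (row 316) and Abcd2 (row 142) were outside the dim rows.

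**Figure D3:**
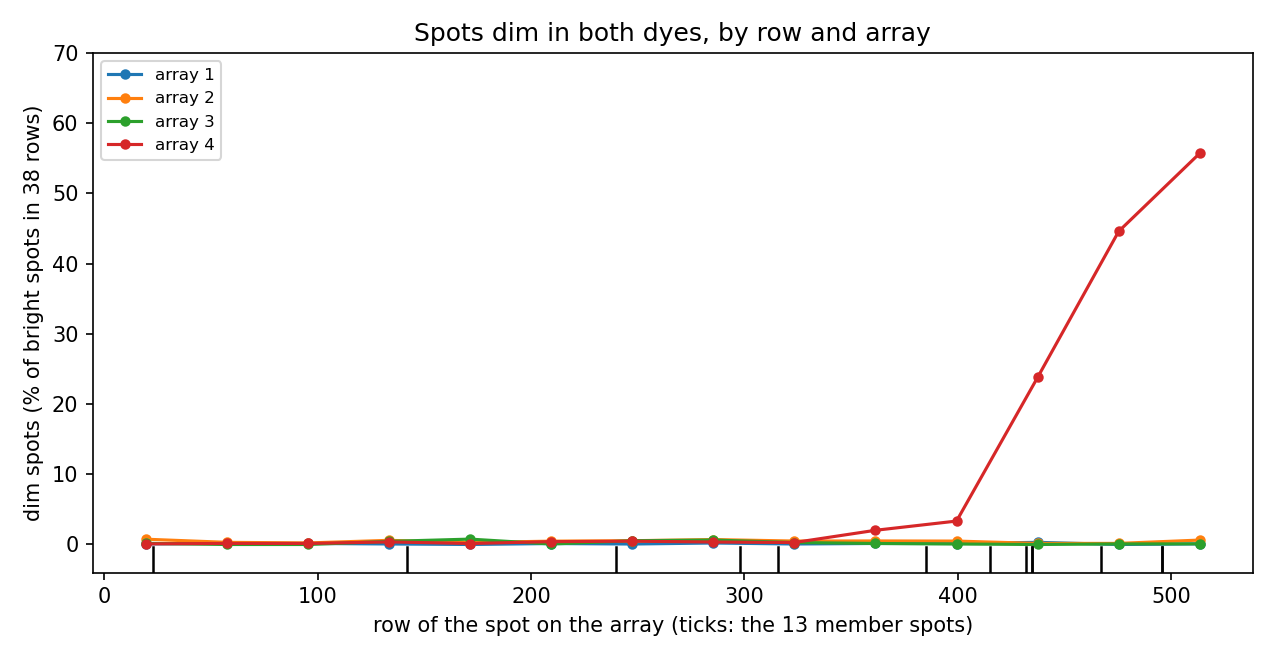
Share of bright spots (percent, in bins of 38 rows) that were dim in both dyes on 1 array relative to the other arrays, by row of the array, with ticks for the rows of the 13 member spots. On array 4 the share climbs to 55.7% in the last bin, while on the other arrays it stays near 0.

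The authors' deposited table gave higher values for both leading genes. Acsl6 was at 1.39, 1.24, 1.38 and 1.39 in its columns for arrays 1 to 4 (1.35 ± 0.08, SD, n = 4), and Abcd2 at 0.85, 0.38, 0.33 and 0.75 (0.58 ± 0.26). All 9 members had a mean above 0 there, with Acsl3, Acss2, Acsl4 and Acsl1 between 0.02 and 0.04. The log base and normalization of that table are not given in the sources used here, and the log2 base is assumed. Across the kept probes its columns correlated only weakly with the scanner ratios of the same array (r between 0.19 and 0.43). Its columns for arrays 3 and 4 were opposed (r = -0.51), which the scanner ratios were not (r = 0.05). Its values therefore cannot be read array by array, and its means carry the same doubt wherever they are given.

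**Figure D4:**
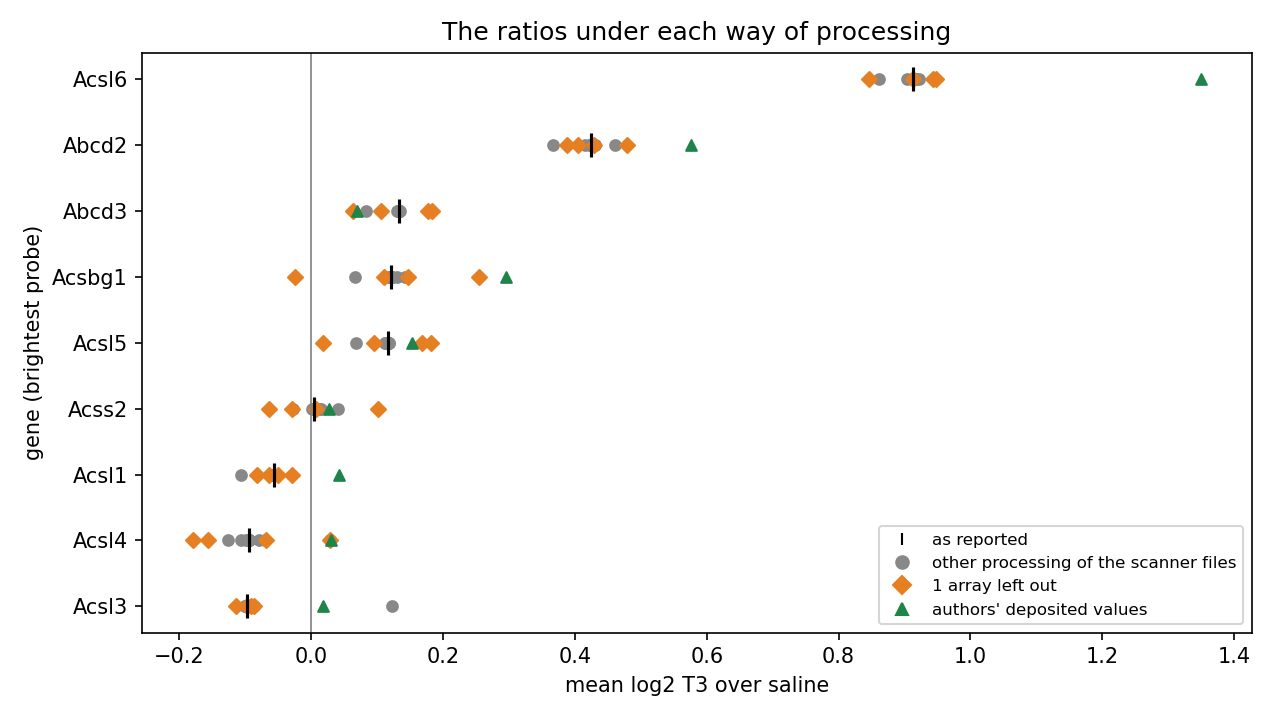
Mean log2 T3 over saline of the brightest probe of each gene as reported, under other ways of processing the scanner files, with 1 array left out and in the authors' deposited table. Acsl6 (0.85 to 1.35) and Abcd2 (0.37 to 0.58) stay above 0 throughout, while Acsl1, Acsl3, Acsl4, Acsbg1 and Acss2 have values on both sides of 0.

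For Acsl6 and Abcd2, the genes with the nearest values on the 4 arrays were found by Euclidean distance among 9061 genes. Nearest to Acsl6 were Apln, the peptide apelin (distance 0.28), Klf9, a transcription factor (0.36), and Defa24, a defensin (0.40). Their mean ratios were 0.83, 0.90 and 0.99. Nearest to Abcd2 were Ddc, aromatic amino acid decarboxylase (0.08), Higd1a, a mitochondrial protein (0.11), and Lrg1, a secreted glycoprotein (0.11), with means of 0.46, 0.47 and 0.46. With 4 arrays this states likeness of 4 numbers and no more.

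Around the members, 9 lists of related genes were read by the brightest kept probe of each gene. None of these genes passed in the limma fit over all probes (0 higher, 0 lower; 0 with a dye term), beside 0.161% of named genes. At an unadjusted p under 0.05 there were 6 higher and 13 lower, or 17.8%, beside 9.26% of named genes. Nothing is read from this difference, since the lists were chosen with earlier results of these data known. Of the lists, that of the other acyl-CoA synthetases had the lowest median, -0.14 over 8 tested genes, of which 6 had a mean below 0. Acss1, the mitochondrial acetyl-CoA synthetase, was at -0.62 ± 0.31 (SD, n = 4; limma adjusted p = 0.149) by its brightest probe, and its other probes gave -0.47 and -0.35. It was below 0 on all 4 arrays by each of its 3 probes, while the cytosolic Acss2 was near 0. The difference between Acss1 and Acss2 was not tested.

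Abcd4, another ABCD gene, had no matched probe. Slc25a17, a peroxisomal cofactor carrier, was at 0.11 ± 0.15 (SD, n = 4; limma adjusted p = 0.826). The list of 5 tested peroxisomal membrane proteins had a median of -0.04.

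Downstream of Abcd2 and Abcd3, the enzymes of peroxisomal beta-oxidation had a median of -0.01 over 17 genes, 7 above and 10 below 0. Ech1, a dienoyl-CoA isomerase, was at -0.27 ± 0.14 (SD, n = 4; limma adjusted p = 0.378). The 17 peroxisome biogenesis genes had a median of -0.03, with 13 below 0, among them Pex10, a ubiquitin ligase of protein import, at -0.15 ± 0.05 (limma adjusted p = 0.627).

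The 19 genes of mitochondrial fatty acid oxidation had a median of -0.02. Cpt1a, the rate-limiting transferase of mitochondrial import in liver and glia, was at -0.04 ± 0.17 (SD, n = 4), and Cpt1b, its muscle isoform, at 0.22 ± 0.04 (limma adjusted p = 0.384). Cpt1b was above 0 on all 4 arrays but at -0.14 in the authors' deposited table.

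Of the genes that use acyl-CoA for glycerolipids, 10 of 14 had a mean above 0 and the median was 0.10, the highest of the lists, with Agpat5, an acyltransferase, at 0.25 ± 0.29 (SD, n = 4; limma adjusted p = 0.651). The 8 tested PPAR and SREBP regulators had a median of 0.03, with Rxrg, a retinoid X receptor, at -0.39 ± 0.21 (limma adjusted p = 0.253). Ppara, Ppard, Pparg, Rxra and Srebf1 had no tested probe.

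**Figure D5:**
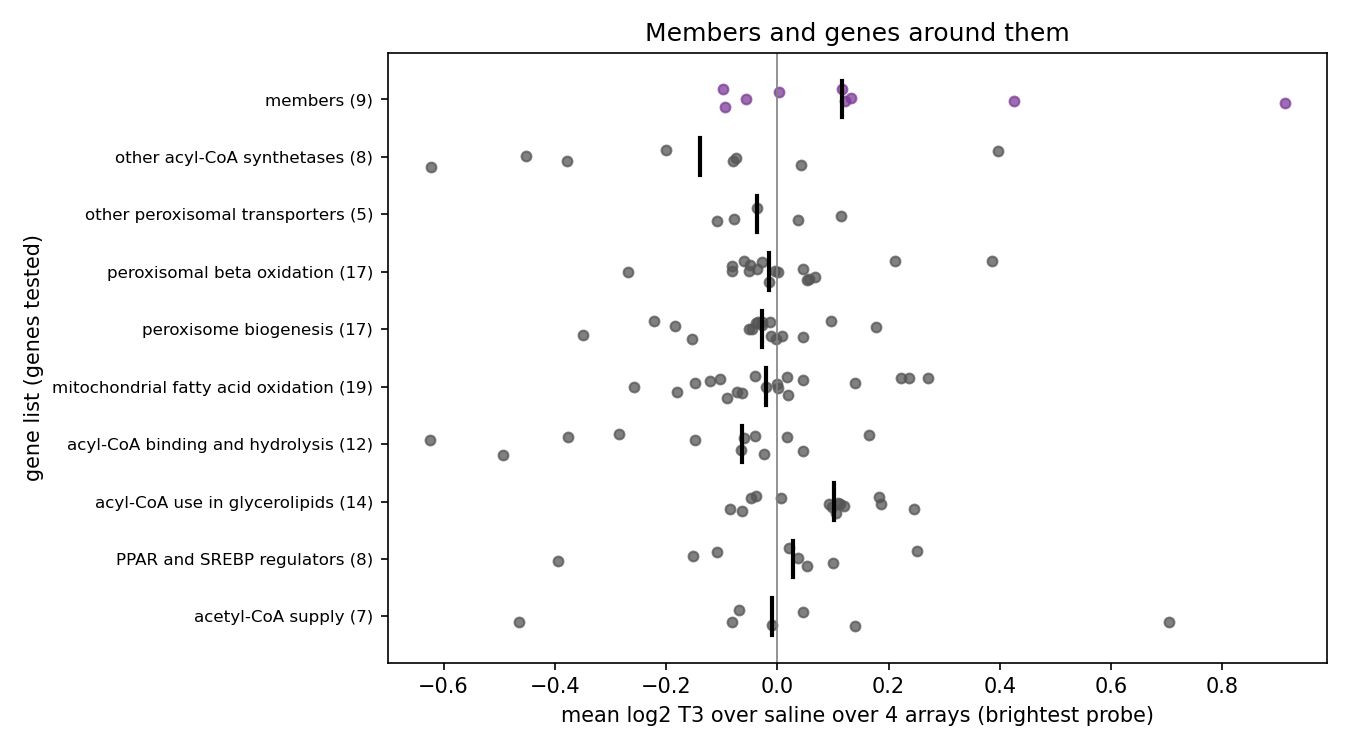
Mean log2 T3 over saline of each gene (points, brightest probe) in the member set and in 9 lists of related genes, with the median of each list (bar) and the number of genes tested. Acsl6 at 0.91 and Abcd2 at 0.42 stand at the right of the member row, and the list medians lie between -0.14 and 0.10.

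Markers of the cell types a block can hold were read beside these values. Hypothalamic neurons were present, as 9 of 10 markers of hypothalamic nuclei, among them Pomc, Agrp, Hcrt and Oxt, were well above background on every array in both channels. Of these 9 markers 8 had a mean below 0 (median -0.22), and the median by array was 0.20, -0.18, -0.51 and -0.04 on arrays 1 to 4. The magnocellular peptide genes differed most between arrays, with Avp at 1.17, -0.18, -2.63 and -0.72 and Oxt at 1.81, 0.13, -2.53 and -0.27. General neuronal markers did not lean the same way, as 6 of 8 tested had a mean above 0. Their median was 0.02, and by array it lay between -0.06 and 0.02. Of 9 tested astrocyte markers 7 had a mean below 0, while Slc1a2 was at 0.34 and S100b at 0.08. The summed level of the 9, in which bright markers weigh most, was 159480 to 182046 in T3 channels and 186777 to 201956 in saline channels. How often sums of other genes separate in this way was not computed, so nothing is read from it. Of genes known from astrocytes outside this list, Acsl6 was at 0.91 ± 0.14 and Acsbg1 at 0.12 ± 0.35, a mean smaller than its SD. Fabp7, also known from astrocytes and named because it had the smallest p of its related list, was at -0.49 ± 0.16. Of 10 oligodendrocyte markers 9 had a mean below 0, with a summed level of 154825 to 268040 in T3 and 238467 to 286941 in saline channels. Microglia markers had 3 means above and 5 below 0 (median -0.07). Endothelial markers had 3 above and 3 below (median -0.03). No marker of these lists passed in the limma fit, and no astrocyte or oligodendrocyte marker tested was at background. The part of the cell types in the member ratios was not tested.

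Some markers of choroid plexus and of red blood cells stood apart on single arrays. Of 4 choroid plexus markers, Ttr was at 3.53 and Sostdc1 at 2.70 on array 3, where their other arrays lay between -0.37 and 0.45, while Folr1 at 0.30 and Kcnj13 at 0.22 did not stand apart there. The 3 red blood cell markers were between -4.25 and -3.20 on array 2, and the median was -3.25 there against 0.34 to 1.35 on the others. Single markers of other lists also lay apart on 1 array. The astrocyte markers S100b and Gfap were at 2.19 on array 3 and at 1.25 on array 4, and below 0 on their other arrays. The microglia marker Itgam was at -1.45 on array 1 and between -0.20 and 0.30 on the others. The part of these markers in the member ratios was not tested. On array 3 Acsl6 was at 0.91 and Abcd2 at 0.49, and on array 2 they were at 0.81 and 0.26. Without replicate 2 the means were 0.95 and 0.48, and without replicate 3 they were 0.91 and 0.40.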

How the data were processed

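The authors deposited 1 scanner file per array with the median intensity of each spot and its background and a processed intensity. The software was Agilent Feature Extraction, version 10.7.3.1, as the file headers state. They also deposited a table of ratios on a log scale that is assumed to be log2. The submitters' processing notes name limma, version 3.18.9, and its steps are not given in the sources used here.

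Median signals were corrected with normexp (offset 50) and then loess in limma 3.58.1 (R 4.3.3), where control spots had weight 0. Outlier-marked spots were left out, spots of a probe averaged, and ratios turned to T3 over saline. A probe was kept if well above background on at least 3 arrays in the T3 or the saline channel (23210 of 41012). Single-channel levels used Aquantile scaling. Accessions were matched to RefSeq (GRCr8, names alone), giving 16955 probes 1 symbol and 24057 none; a gene's brightest kept probe stands for it.

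Tests were limma's (lmFit, eBayes, 2-sided, Benjamini-Hochberg over all kept probes), tested on simulated data. Each array is 1 pair of channels, and the pair is the unit. The labels do not say that RNA was unpooled, so p-values measure the spread between these arrays. The number of arrays limits the precision. Members and lists were chosen with earlier results of these data known. Of each related list, genes past the threshold, or otherwise the one with the smallest p, were named, plus Abcd4 and Cpt1a; some genes under this rule are not reported here. Alternatives were other background corrections, scalings, filters, weights and thresholds, a dye term, single-channel values without the array, the deposited table, and each array left out.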

Additional observations from a re-analysis of the deposited data

Results flagged for a closer look

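Of 39 ratios and list medians examined over the 4 arrays, 2 had a single array apart from the rest, and chance gives about 1 in 20. The measure is the gap from that array to its nearest neighbour divided by the whole range. For Fabp7, a fatty acid-binding protein of astrocytes, it was 0.894, with array 2 at -0.73 and the rest between -0.43 and -0.40. For the median of 8 neuronal markers it was 0.857, with array 3 at -0.06 and the rest between 0.0068 and 0.02. No probe of the 9 member genes stood out in this way. Acsl3, with 3 arrays, was not examined.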

How the results depend on the processing

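Acsl6 and Abcd2 kept a mean above 0 in all 20 alternatives and moved by less than 1 SD in 19 of them. The exception was the authors' deposited table, with 1.35 and 0.58. Several alternatives could not move these means, among them another threshold, a dye term, trend and robust in eBayes and other probe filters. With 1 array left out Acsl6 ranged over 0.85 to 0.95 and Abcd2 over 0.39 to 0.48. The members' median of 0.12 ranged over -0.025 to 0.106 with 1 array left out. The number of probes called for T3, 23, was 14 with a normexp offset of 16, 0 with Agilent's processed signals, 0 with median centring, 10 in the authors' deposited table, 67 with no filter on dim probes, 15 with a dye term, 38 with trend and robust in eBayes, 90 at an adjusted p of 0.1, and 0 to 68 with 1 array left out (limma). At an unadjusted p under 0.05 the processed signals gave 1950 and median centring 131. With no replicate block, that is with the pairing on the array ignored and single-channel values fitted with a dye term, 0 probes were called (530 at an unadjusted p under 0.05) and the member ratios were unchanged except for that of Acsl3, since the design is balanced. Of the related genes 0 were called, and 0 to 1 with 1 array left out; this was Bdh1 without replicate 2 (0.87, limma adjusted p = 0.0187). Dye effects were called for 0 of 13 member probes, beside 0% of all probes, and for 10 with median centring, beside 66.8% of all probes. The cause of these changes was not tested.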

Other observations

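Several genes that bind fatty acids, or bind or split acyl-CoA, had mean ratios below 0, and none passed the limma test over all probes. Dbi, the acyl-CoA-binding protein, was at -0.62 ± 0.25 (SD, n = 4; limma adjusted p = 0.101) and at -0.57 by its other probe (limma adjusted p = 0.078). Fabp7 was at -0.49 ± 0.16 (limma adjusted p = 0.101), Fabp5 at -0.28 ± 0.10 and Acot1, an acyl-CoA thioesterase, at -0.38 ± 0.24. Of the 12 tested genes of this kind 9 had a mean below 0, and their median was -0.06. Dbi, Fabp5 and Acot1 were named after their values were seen.

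Bdh1, an enzyme that interconverts the ketone bodies, was at 0.71 ± 0.35 (SD, n = 4; limma adjusted p = 0.134). Bdh1 was named after its value was seen. Outside the ABCD family, Crot, which makes medium-chain carnitine esters in peroxisomes, was at 0.39 ± 0.33 (limma adjusted p = 0.443) and was also named after its value was seen.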
